A study of Homo sapiens with 8 samples.

Results

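The 9 genes described here are the inhibitors of differentiation ID1, ID2, ID3 and ID4 and the BMP pathway genes BAMBI, BMP2, BMP4, BMP7 and GREM1, followed by chromatin accessibility in MCF10A cells exposed to TGFβ1. ATAC-seq marks open DNA by inserting adapters with a transposase, and had been run on 8 libraries of this immortalised, non-tumorigenic human mammary epithelial cell line, all of WT genotype. A pair of replicates received solvent (BSA in PBS) and a pair each received 5 ng/ml TGFβ1 for 6, 24 or 72 h. Solvent samples carry time 0 in the labels, while a legend of the study gives them 72 h of solvent and states that all samples were collected at the same time after plating. All cells, controls included, grew in medium with horse serum, EGF, hydrocortisone, cholera toxin and insulin.

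The authors deposited 1 peak list per condition, called on both replicates together. These lists therefore allow no test and no replicate check of the differences given here, and the comparisons at 6, 24 and 72 h share the same solvent list. The authors' own test of accessibility, which used the replicates, is not reported here. The value used is the AUC of a peak, the area under the peak caller's significance curve, which grows with read depth and with the width of the peak. Peaks of the 4 lists that shared at least 1 bp were merged into 126658 regions, and those within 50 kb of the body of a gene were taken as that gene's regions. This gave 85 regions: 20 at ID1, 8 at ID2, 14 at ID3, 5 at ID4, 8 at BAMBI, 6 at BMP2, 2 at BMP4, 10 at BMP7 and 12 at GREM1. Neighbouring genes share these windows. For 61 of the 85 regions the nearest protein-coding transcription start site (TSS) was that of one of the 9 genes, while 8 of the ID1 regions lay nearest to HM13.

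ID proteins are helix-loop-helix proteins without a DNA-binding region. They pair with E proteins such as the products of TCF3, TCF4 and TCF12 and keep them off DNA, and their genes are classic direct targets of BMP receptors acting through SMAD1 and SMAD5. BMP2, BMP4 and BMP7 are secreted ligands of that pathway, GREM1 (Gremlin 1) is a secreted antagonist that binds BMP ligands, and BAMBI is a membrane pseudoreceptor that lacks the kinase domain and dampens signalling by TGFβ family receptors. In epithelial cells TGFβ is known to repress ID genes at later times, with ATF3 as a partner of SMAD3 at ID1, and to induce GREM1 in several cell types.

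Sequences are shown first for the upstream GC-rich elements of ID1, ID2, ID3 and BAMBI, because GGCGCC is the core through which SMAD1 and SMAD5 are known to act on ID genes. Then come 4 windows of changed regions described below. They are a choice among the changed regions, and some regions with larger changes are not shown. The upstream windows are read on the strand of the gene. Capitals mark matches to GGCGCC, to the cyclic AMP response element TGACGTCA or to the SMAD pair CAGACA, which reads as TGTCTG from the other strand. All coordinates are GRCh38.
ID1, chr20:31604264-31604389, plus strand: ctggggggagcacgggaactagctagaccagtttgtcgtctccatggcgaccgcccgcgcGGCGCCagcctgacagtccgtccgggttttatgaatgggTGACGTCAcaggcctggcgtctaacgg
ID2, chr2:8681588-8681713, plus strand: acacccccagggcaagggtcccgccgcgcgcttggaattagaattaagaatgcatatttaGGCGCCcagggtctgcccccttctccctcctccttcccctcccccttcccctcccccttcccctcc
ID3, chr1:23562398-23562501, minus strand: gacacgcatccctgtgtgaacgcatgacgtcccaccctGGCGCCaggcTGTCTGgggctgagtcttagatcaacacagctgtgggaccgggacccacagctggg
BAMBI, chr10:28677230-28677355, plus strand: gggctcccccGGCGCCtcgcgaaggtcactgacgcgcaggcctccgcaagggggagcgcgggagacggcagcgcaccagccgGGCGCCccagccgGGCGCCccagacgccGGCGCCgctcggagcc
Counted in bp from the TSS, the ID1 element began at -965, inside the region over the TSS, and a cyclic AMP response element followed it at -926. The ID3 element, at -2962, also lay inside a region. The ID2 element, at -408, fell in the gap between a pair of called regions. BAMBI held 4 copies within the 126 bp shown, from -291 to -166, all inside its TSS region. The ID4 copy at -508 lay outside any called region. Among 35116 promoters of 300 bp in the RefSeq table, 19.2% held GGCGCC on either strand. That table matched 7 of the 9 genes (not BMP2 and BMP7), of which BAMBI, BMP4 and GREM1 held it.

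The second group of windows covers up to 201 bp centred on the highest summit of a region and clipped to the region, read on the plus strand. Here capitals mark the AP-1 site TGACTCA, which reads as TGAGTCA from the other strand, the SMAD pair as above and the E-box CACCTG.
GREM1, 29.9 kb upstream, chr15:32687647-32687847: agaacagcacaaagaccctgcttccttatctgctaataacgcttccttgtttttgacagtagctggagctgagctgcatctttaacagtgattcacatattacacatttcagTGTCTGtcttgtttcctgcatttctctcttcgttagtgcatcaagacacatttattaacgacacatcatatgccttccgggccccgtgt
BMP7, 65.5 kb downstream of the TSS, chr20:57200965-57201165: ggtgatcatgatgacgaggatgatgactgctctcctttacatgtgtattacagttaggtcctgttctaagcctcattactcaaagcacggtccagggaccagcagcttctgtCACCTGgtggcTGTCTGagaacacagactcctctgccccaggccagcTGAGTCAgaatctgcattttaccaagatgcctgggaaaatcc
BAMBI, 16.3 kb upstream, chr10:28661140-28661327: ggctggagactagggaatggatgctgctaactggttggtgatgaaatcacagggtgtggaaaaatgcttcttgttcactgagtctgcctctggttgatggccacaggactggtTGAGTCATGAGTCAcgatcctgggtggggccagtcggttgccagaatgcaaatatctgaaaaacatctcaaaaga
BMP2, 34.8 kb downstream of the TSS, chr20:6802409-6802588: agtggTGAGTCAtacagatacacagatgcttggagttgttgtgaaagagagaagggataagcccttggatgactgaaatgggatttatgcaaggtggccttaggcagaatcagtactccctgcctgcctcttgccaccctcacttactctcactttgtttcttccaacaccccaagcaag
The BMP7 window held an E-box, a SMAD pair and an AP-1 site. The BAMBI window held a pair of AP-1 sites in direct succession, and the GREM1 window held a SMAD pair alone. Outside its window, the same GREM1 region also held an AP-1 site 758 bp and another SMAD pair 464 bp from the summit. A match is a description of the letters and shows no binding.

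The 85 regions of the ID and BMP genes had a solvent peak more often than all regions did. This left a smaller share that could gain one, and at 72 h most gains lay at GREM1 and BAMBI. The solvent list had a peak in 69 of the 85 regions, and in 82493 of all 126658. The lists at 6, 24 and 72 h had one in 77, 80 and 79 of the 85. A peak in all 4 lists was found in 67 regions (78.8%), as in 62.6% of all regions. The whole lists held 86209 solvent peaks and 107656, 118433 and 116720 peaks with TGFβ1. Each TGFβ1 list was therefore divided by its median ratio to solvent over shared regions within 3 kb of a TSS, which amounted to ratios of 1.36, 1.30 and 1.19 in order of time. Ratios below are on this scaled log2 AUC basis. A shared region was counted as raised or lowered from 1.5-fold, as gained when only the TGFβ1 list had a peak, and as lost when only the solvent list had one.

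A peak was gained in 8 of 85 regions at 6 h (9.41%, 95% Wilson interval 4.85 to 17.5), where 19.3% of all regions gained one. At 24 h the count was 13 (15.3%, 9.16 to 24.4) against 27.6% of all regions. At 72 h it was 11 (12.9%, 7.38 to 21.7) against 27.0%. With these settings the background lay above the upper bound at each time, although these intervals cover counting error only and regions of one locus are not independent. A region without a solvent peak has one in a TGFβ1 list by construction, so these shares largely follow the share with a solvent peak. Of the 16 regions without one, 8, 13 and 11 were gained at 6, 24 and 72 h. The matching share was not computed for all regions. GREM1 held 6 of the 11 gains at 72 h, BAMBI 3, and ID2 and BMP7 1 each, while ID1, ID3, ID4, BMP2 and BMP4 had none at that time.

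Raised regions were below the background share at 24 and 72 h, while at 6 h the background lay inside the interval. The raised regions numbered 6 of 69 at 6 h (8.70%, 4.05 to 17.7, background 11.7%), 6 of 67 at 24 h (8.96%, 4.17 to 18.2, background 20.3%) and 8 of 68 at 72 h (11.8%, 6.08 to 21.5, background 22.9%). The lowered regions numbered 1 of 69 (1.45%, background 1.40%), 2 of 67 (2.99%, background 3.22%) and 2 of 68 (2.94%, background 3.90%). Of the 69 solvent regions, 0 were lost at 6 h (upper bound 5.27%, background 0.714%), 2 at 24 h (2.90%, background 1.86%) and 1 at 72 h (1.45%, background 3.44%). The 2 lost at 24 h were the BMP2 region 34.8 kb downstream and an ID3 region 28.7 kb downstream, which had 507, 518 and 500 in the other lists. Lowered and lost regions were thus at about the background share, within wide intervals. Without scaling, raised regions made up 30.4%, 43.3% and 29.4%, and 0% were lowered at 6 and 24 h. Scaled over all shared regions, 5 regions were raised at 72 h (7.35%) and 4 were lowered (5.88%). Just inside and just outside the limit at 72 h, the log2 ratios were 0.59 and 0.56 for raised and -0.75 and -0.51 for lowered regions.

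The median region hardly differed from the genome. It was 0.03, 0.13 and 0.18 at 6, 24 and 72 h for the regions of these genes and 0.06, 0.12 and 0.15 for all regions. Of the 85 regions, 38 (44.7%) lay within 3 kb of a TSS, against 34.4% of all regions. Within that class 2 of 32 shared regions were raised at 72 h (6.25%, all regions 13.4%) and 3 of 38 were gained (7.89%, all regions 16.4%). Among regions farther away, 6 of 36 were raised (16.7%, all regions 29.3%) and 8 of 47 were gained (17.0%, all regions 32.6%). Here too the gained shares largely follow solvent presence. A solvent peak stood in 32 of 38 near regions (all regions 33111 of 43524) and in 37 of 47 distant ones (49382 of 83134). At 6 h the distant regions were raised in 6 of 37 cases (16.2%), close to the 14.5% of all distant regions.

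**Figure D1:**
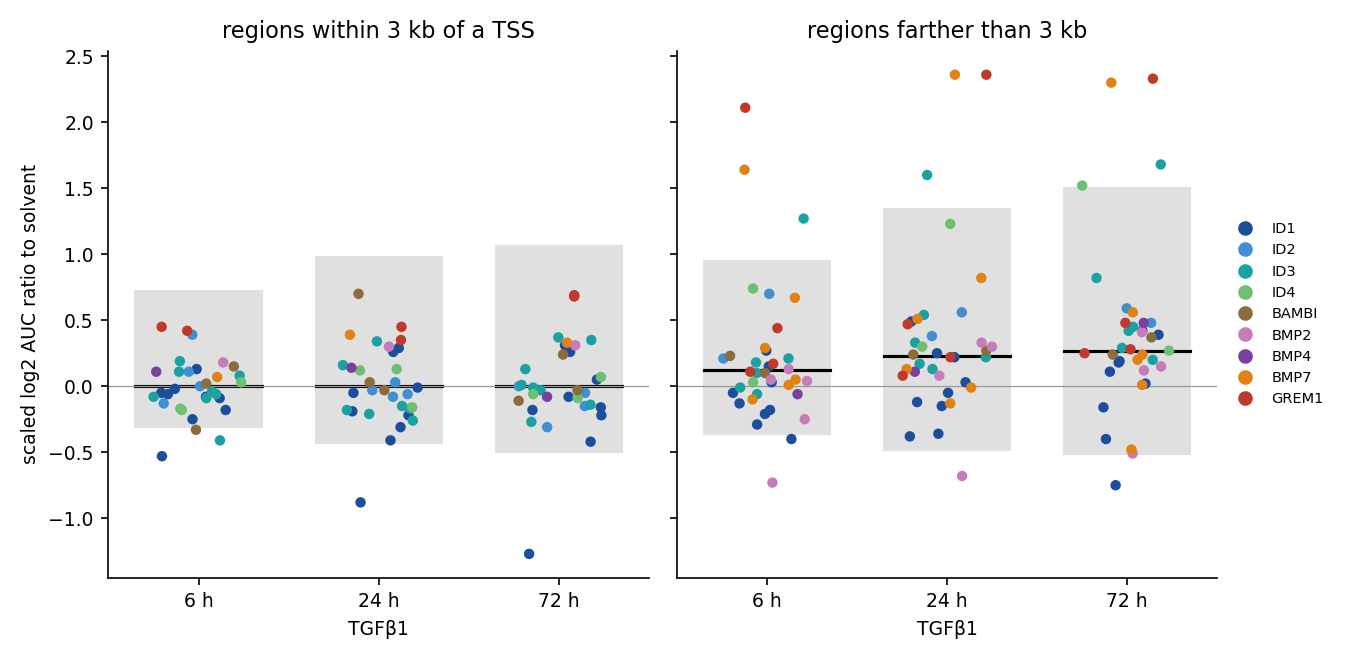
Scaled log2 AUC ratio to solvent of each shared region of the 9 genes (points, coloured by gene) at 6, 24 and 72 h of TGFβ1, for regions within 3 kb of a TSS (left) and farther away (right). Grey boxes span the 5th to 95th percentile of all regions of that class and black lines their median. Most points sit inside the boxes, with a GREM1 and a BMP7 region above 2 at 24 and 72 h and an ID1 region at -1.27 at 72 h.

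To see which loci carried the change, AUC was summed over all regions of each gene and list. GREM1 had the largest sum ratio of the 9, from 5610 in solvent to 13153, 14710 and 15430, a scaled log2 ratio of 0.79, 1.01 and 1.21. At 72 h this was above 97.1% of the 18784 protein-coding genes with a sum above 0 in every list, whose median was 0.11. BMP7 followed, with 8434, 13913, 15603 and 12013 (0.28, 0.51 and 0.26). ID1 was at the other end, with 45708, 57289, 52819 and 48529, a scaled ratio of -0.12, -0.17 and -0.16 although each unscaled sum was above solvent, below all but 5.53%, 3.50% and 4.51% of genes at the 3 times. The other loci stayed between -0.02 and 0.23 at every time, with ID3 at 0.23 and BAMBI at 0.22 at 72 h. These sums move with the number of regions called, which at GREM1 was 6, 9, 10 and 12, whereas at ID1 it was 18, 19, 19 and 18.

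**Figure D2:**
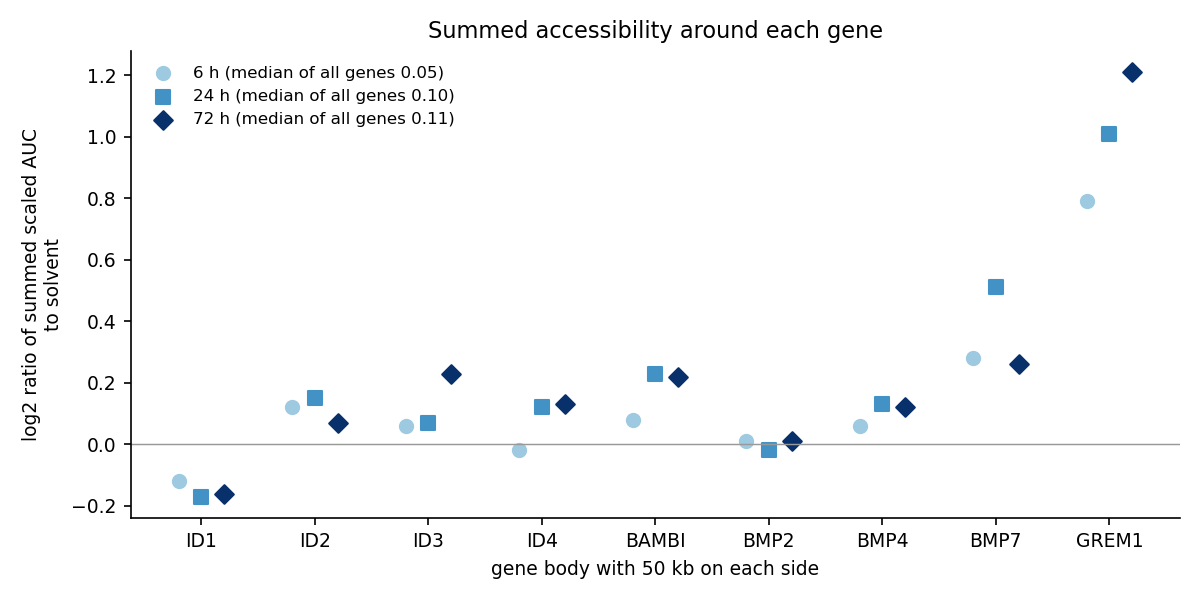
Log2 ratio to solvent of the summed, scaled AUC over all regions within 50 kb of each gene (vertical axis) at 6 h (circles), 24 h (squares) and 72 h (diamonds). GREM1 reaches 1.21 at 72 h and ID1 lies below 0 at all 3 times.

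At their start sites the ID genes differed little between conditions once lists were scaled, whereas every unscaled AUC was above solvent. The ID1 region, 2052 bp over the TSS, had an AUC of 5775 in solvent and 7507, 7282 and 6489 at 6, 24 and 72 h. After scaling the log2 ratios were -0.06, -0.05 and -0.08. The ID2 TSS region had 2684, 3633, 3353 and 3183, with scaled ratios no farther from 0 than -0.06. Both regions thus stayed close to the median shift of regions within 3 kb of a TSS. The ID3 TSS region had 3072, 3989, 3460 and 3565, and its lowest scaled ratio was -0.21 at 24 h, followed by -0.03 at 72 h. For ID4 no peak covered the TSS. The nearest region began 429 bp downstream, over the first part of the gene, and had 635, 766, 898 and 709 (-0.17, 0.12 and -0.09). Per base of called peak, the solvent signal was 2.92 at ID1, 3.35 at ID2 and 3.15 at ID3, but 0.827 at ID4. Of the ID family, ID4 thus had the weakest accessibility at its start, in solvent and in each TGFβ1 list.

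The start sites of the pathway modulators fell into 2 kinds. BAMBI, BMP2 and BMP4 were accessible in every list, and BMP7 and GREM1 in none. The BAMBI TSS region, which holds the GGCGCC cluster shown above, had 4326, 5956, 5516 and 5028, with scaled ratios of 0.02, -0.03 and -0.03. The BMP2 TSS region had 2036, 3139, 3261 and 2987. Its ratios of 0.18, 0.30 and 0.31 were the highest of the start sites at 72 h, but its called width went from 848 to 1377 bp, and per base its ratio at 72 h was -0.32. The protein-coding genes whose TSS regions were most like it over the 3 ratios were KIF5C, NT5DC2 and SPTBN1, with root mean square differences of 0.0095, 0.0112 and 0.0148 among 13750 genes. BMP4 had a region 2595 bp from its canonical TSS, over 2 of its 9 annotated start positions, with 2016, 2948, 2893 and 2270 (0.11, 0.14 and -0.08). BMP7 had no region over any of its 9 annotated starts, and the nearest solvent region lay 49785 bp away. GREM1 had none over either start, with the nearest solvent region 12750 bp away. For scale, over all protein-coding genes with a TSS region the 5th to 95th percentile of the scaled ratio at 72 h ran from -0.33 to 0.42. All 7 start regions of these genes lay within it.

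**Figure D3:**
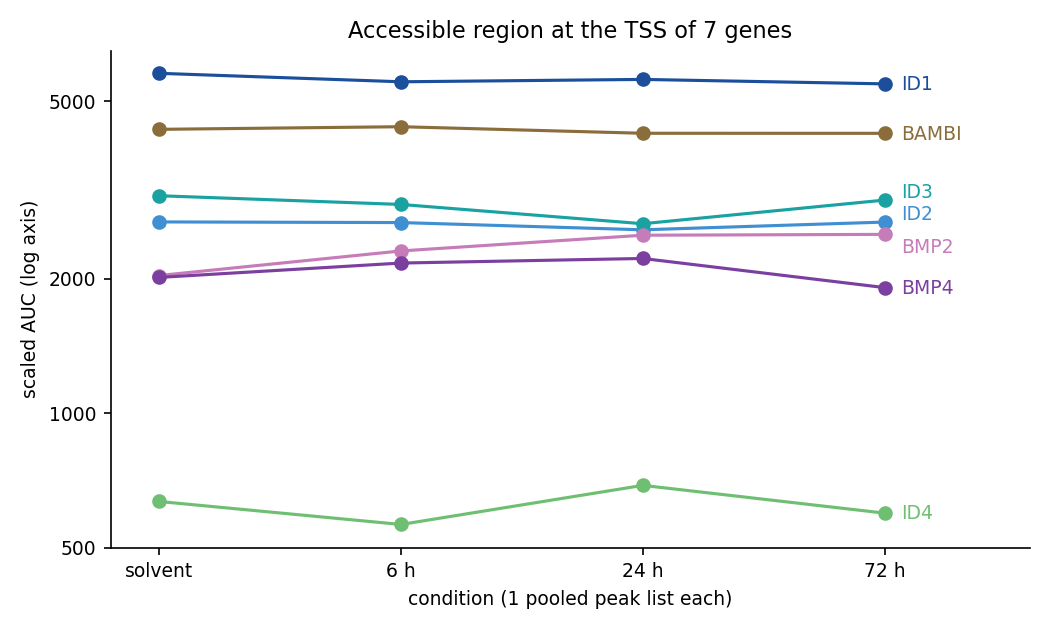
Scaled AUC (log axis) of the accessible region at the TSS of 7 genes in solvent and after 6, 24 and 72 h of TGFβ1, 1 pooled list per point. The lines are nearly flat, with BMP2 rising by 0.31 in log2 ratio by 72 h; levels of different genes also reflect the width of their regions.

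GREM1 was the locus with most opening, and none of it lay at the GREM1 promoter. The region 29.9 kb upstream, chr15:32687468-32688699, sits in an intron of SCG5 and of the ARHGAP11A-SCG5 readthrough gene, and the nearest protein-coding TSS was that of SCG5. Its AUC was 565 in solvent and 3314, 3763 and 3372 at 6, 24 and 72 h, a scaled 4.32-, 5.12- and 5.03-fold. Most of the difference was present at 6 h, with somewhat higher values at 24 and 72 h. At 72 h the ratio was above that of 99.5% of all shared regions. The −log10 q at the summit went from 5.36 to 8.31, 8.24 and 7.74. The called peak was 253 bp wide in solvent and 1082, 1136 and 1232 bp in the TGFβ1 lists, so the AUC per base was 2.23, 3.06, 3.31 and 2.74, a scaled log2 ratio of 0.16, 0.31 and 0.12. At each time the call was lost per base, and the larger AUC came mostly with a wider peak.

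Other GREM1 regions moved alongside. At 35.2 and 33.5 kb upstream, still within SCG5, AUC was 853, 1549, 1416 and 1628 and 1268, 2358, 2252 and 2410, and both were raised only at 72 h (0.69 and 0.68). With lists scaled over all shared regions these calls were lost (0.54 and 0.53), as they were per base (0.45 and 0.17), and without scaling both regions passed 1.5-fold at 6 and 24 h as well. Between these and the first region, at 32.2 kb upstream, a peak absent from solvent had 443, 971 and 890. A region 25.7 kb downstream of the TSS, chr15:32743450-32744052 in an exon of GREM1, had no solvent peak and 580, 917 and 1153 at 6, 24 and 72 h. Another, 56.2 kb downstream over an exon of FMN1, had 317, 691 and 758 and no solvent peak. These 3 regions were gained in every TGFβ1 list, and the exon region of GREM1 was the strongest gain of any of the 9 genes at 72 h. By comparison the median AUC of the 11 gained regions was 311, not far above the authors' limit of 200. Weak later gains stood at 47.6 kb upstream (251) and 11.1 kb upstream (209), both at 72 h alone, and at 12.5 kb downstream (205 at 24 h and 204 at 72 h). These values lie close to the limit.

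**Figure D4:**
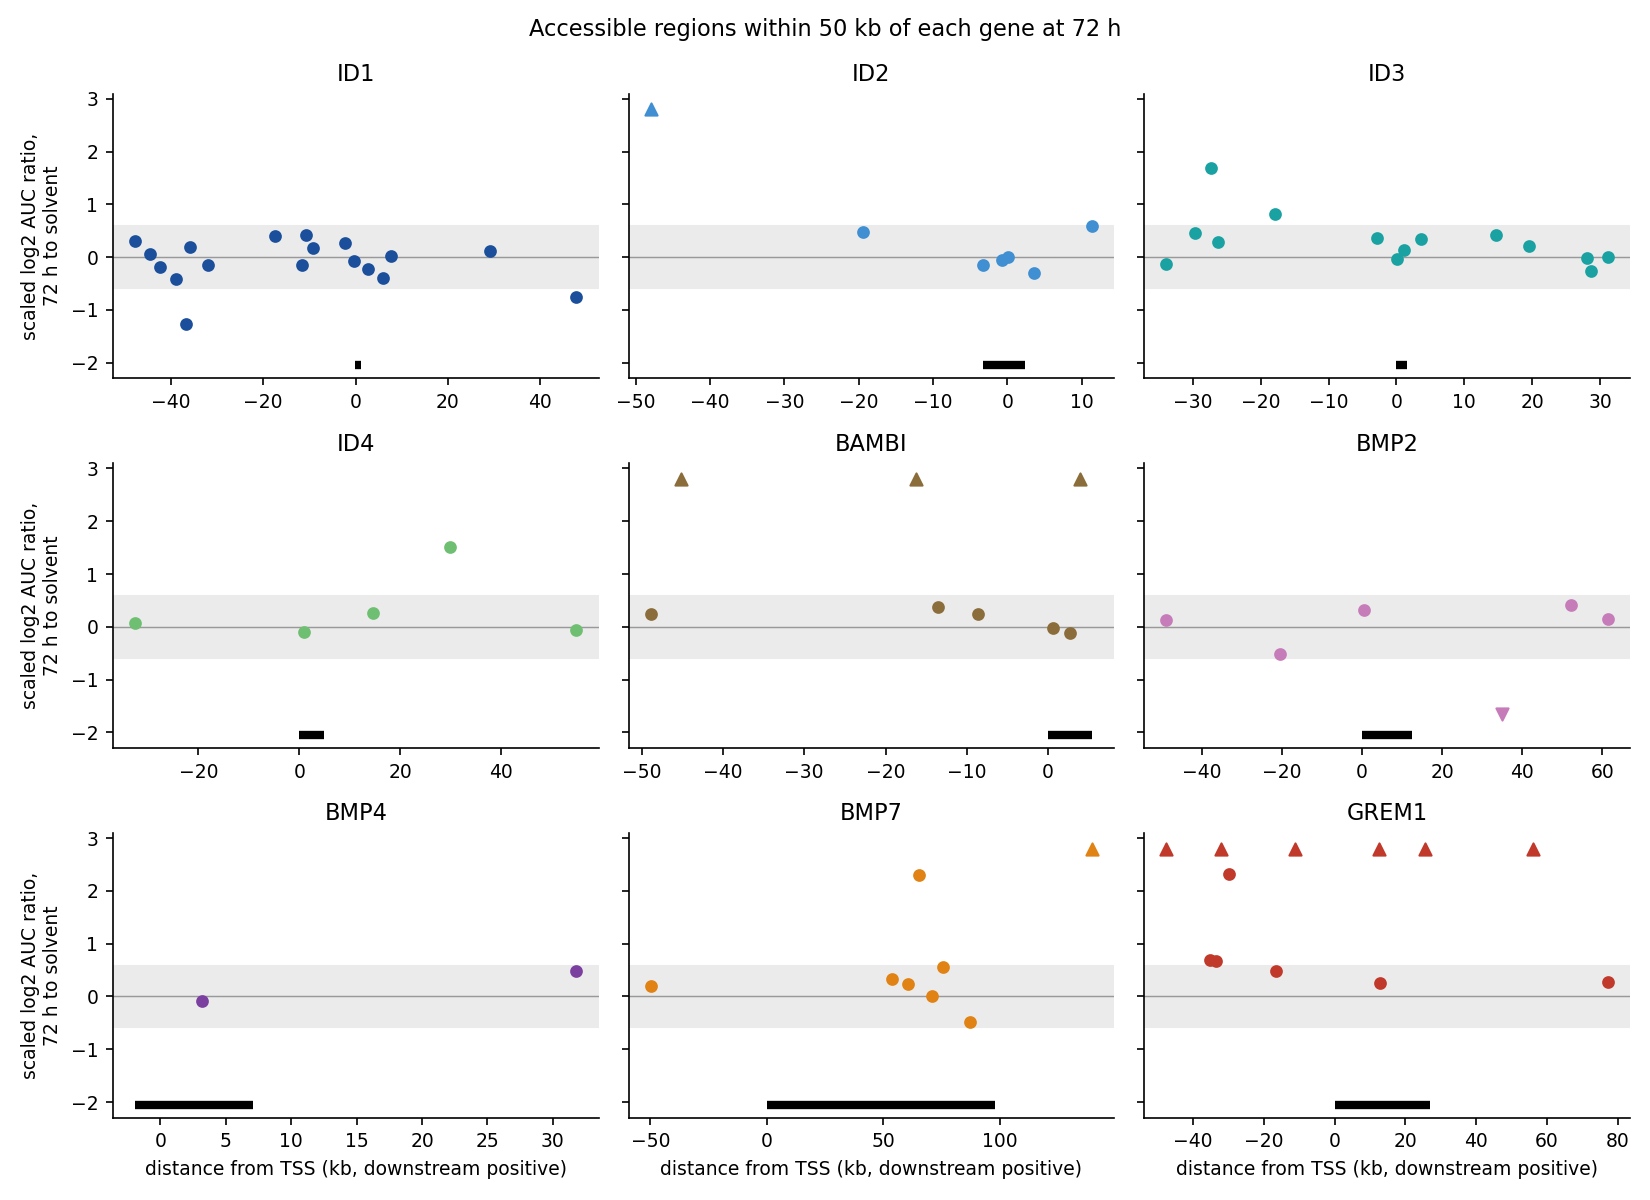
Every region within 50 kb of each gene at 72 h, by distance of its centre from the TSS (horizontal, kb, downstream positive) and scaled log2 AUC ratio to solvent (vertical). Black bars show the gene body, the grey band the range under 1.5-fold, upward triangles at the top gained regions and the downward triangle the lost one, both without a ratio. GREM1 shows 6 gained regions and a point at 2.33, BMP7 a point at 2.30 inside the gene, and ID1 a point at -1.27.

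The largest rise at BMP7 lay inside the gene. The intronic region 65.5 kb downstream of the TSS, chr20:57200885-57201425, had an AUC of 276 in solvent and 1166, 1847 and 1618 at 6, 24 and 72 h. This was a scaled 3.11-, 5.14- and 4.93-fold, above 99.5% of shared regions at 72 h, and the −log10 q went from 4.01 to 6.82, 7.96 and 7.52. Its AUC per base was 1.33 in solvent and 2.31, 3.47 and 3.06 with TGFβ1, and at 6 h the scaled ratio per base was 0.50, below 1.5-fold. A second BMP7 region, 75.5 kb downstream, had 688, 1490, 1576 and 1204 and was raised at 6 h (0.67) and 24 h (0.82) but stood at 0.56 at 72 h. Small gains lay at 139.7 and 136.2 kb downstream, past the end of the gene, and at 15.0 kb, inside it. They were at their highest at 24 h, with 374, 274 and 453, and only that at 139.7 kb still had a peak at 72 h (230). The summed AUC of BMP7 followed the same course, with its top at 24 h.

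Opening near the ID genes took the form of raised distal regions at ID2, ID3 and ID4 and of weak gained peaks at ID1 and ID2. At ID3 the region 27.3 kb upstream, chr1:23586527-23587095 in an intron of MDS2, had 436, 1427, 1720 and 1652, a scaled 2.41-, 3.04- and 3.20-fold. In the 201 bp around its summit the median 24-mer occurred 32 times in the genome and 26.4% of 24-mers were single copy, and the part of read placement in this result was not tested. Per base its ratio was 0.52 at 6 h, below 1.5-fold, and 0.73 and 0.85 later. A region 17.9 kb upstream, with 97.8% of its 24-mers single copy, had 729, 1065, 1383 and 1531, with ratios of 0.10, 0.54 and 0.82. Per base it was 0.44 at 72 h, so this call was lost. At ID4 the intergenic region 29.9 kb downstream of the TSS, chr6:19867073-19867507, had 243, 554, 742 and 829, a scaled 1.68-, 2.34- and 2.87-fold. Its AUC per base was 1.15, 2.26, 2.72 and 1.91, a scaled ratio of 0.68, 0.99 and 0.56, so that the call at 72 h was lost and the order of the times changed. ID2 had a region 11.4 kb downstream with 225, 497, 381 and 403 (0.70, 0.38 and 0.59), which per base turned to -0.78 at 6 h and -0.40 at 72 h, so its direction depends on the measure. ID2 also gained a weak peak 48.0 kb upstream at 24 and 72 h (346 and 356), with an AP-1 site 19 bp from the summit. Within ID2, over an exon 1.2 kb downstream of the TSS, a peak was gained at 6 and 24 h (448 and 400) and not listed at 72 h. ID1 gained a peak 30.9 kb upstream at 6 h alone (231) and one 0.9 kb downstream, over an exon of the gene, at 24 h alone (230), both close to the limit of 200. For the peak 30.9 kb upstream, 64.6% of 24-mers around the summit were single copy. After scaling, no ID1 region was raised at any time.

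ID1 instead carried the regions with the lowest ratios at 72 h. The region 36.7 kb upstream, chr20:31568075-31569044 over an exon of HM13, had an AUC of 1556, 1463, 1099 and 766 in the solvent, 6, 24 and 72 h lists. Its scaled ratios were -0.53, -0.88 and -1.27, the last a 0.415-fold level and lower than all but 0.634% of shared regions. The −log10 q was 5.87, 6.19, 5.42 and 5.01. A region 47.8 kb downstream, nearest to COX4I2, had 1219, 1349, 1236 and 858 (-0.29, -0.36 and -0.75), so that only its 72 h value was below solvent before scaling. Neither lies nearest to ID1, and counting only regions whose nearest protein-coding TSS belonged to one of the 9 genes left 0 lowered regions at 72 h. Lower values were also found at BMP2. A region 34.8 kb downstream of its TSS, chr20:6802354-6802588, had 378 in solvent, 310 at 6 h (-0.73) and no peak at 24 and 72 h. A second one 20.6 kb upstream had 909, 1041, 740 and 760 (-0.25, -0.68 and -0.51) and was lowered at 24 h alone. The lost BMP2 region, whose sequence is shown above, carried an AP-1 site.

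**Figure D5:**
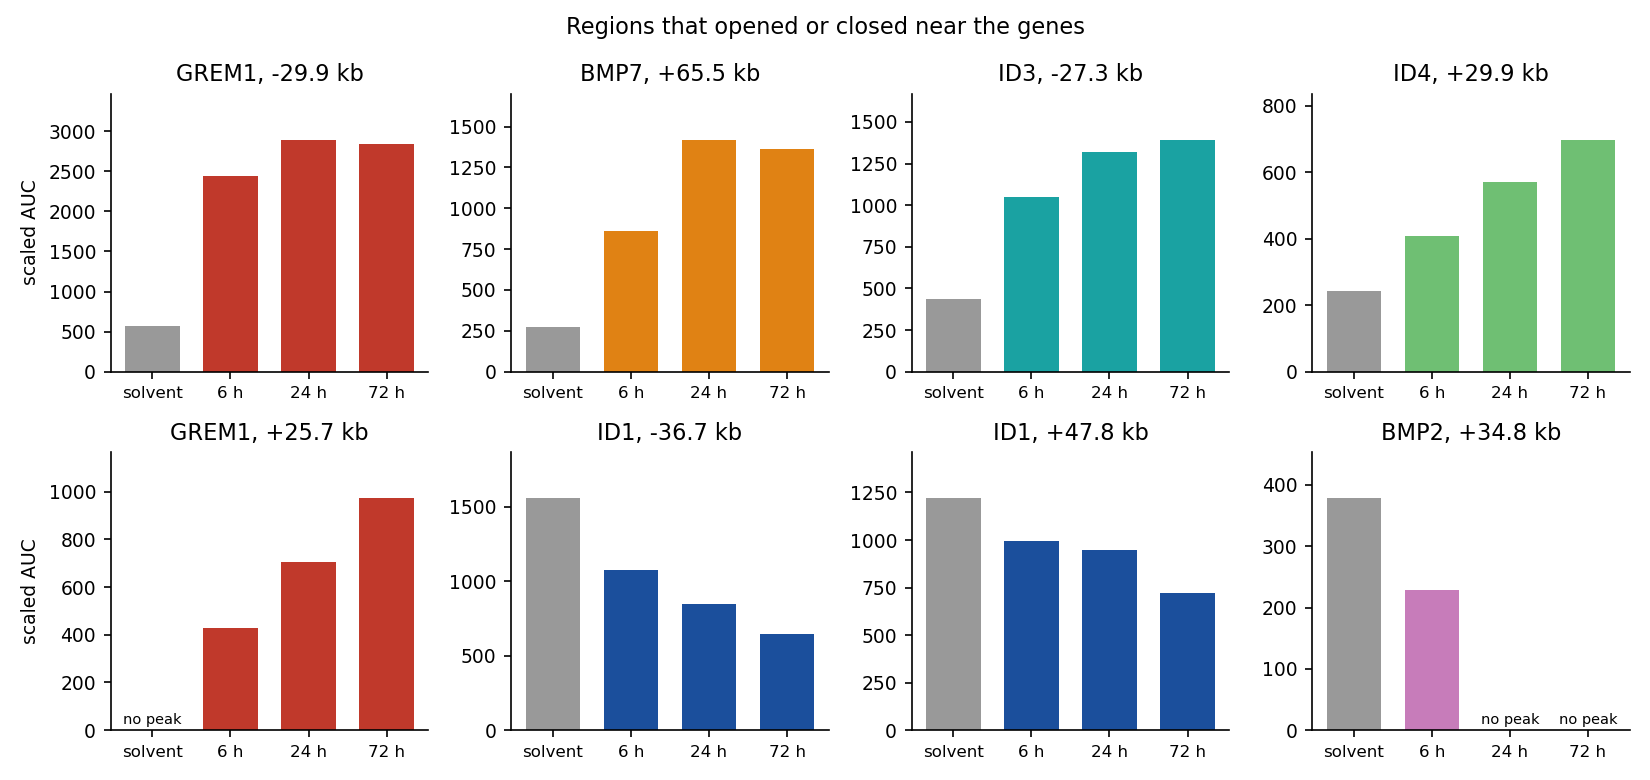
Scaled AUC (vertical axis, own scale in each panel, from 0) in solvent (grey) and after 6, 24 and 72 h of TGFβ1 (coloured) for 8 regions named by gene and distance from its TSS. In the upper row and the first panel of the lower row TGFβ1 bars stand above solvent at all times, the ID4 bar is higher at each later time, and the ID1 regions and the BMP2 region are lower at each time.

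BAMBI kept its start region and gained 3 small ones. The region 16.3 kb upstream, with the paired AP-1 sites shown above, had no peak in solvent or at 6 h and 335 and 317 at 24 and 72 h. Another 45.1 kb upstream, nearest to the TSS of WAC, had 202 at 24 h and 311 at 72 h. Around its summit 72.5% of 24-mers were single copy, and the part of read placement was not tested. Within the gene, over an exon 3.9 kb from the TSS, AUC was 263, 406 and 273. A shared region 8.6 kb upstream was raised at 24 h alone, with 238, 359, 504 and 335. All of these are low beside the start region of the gene. BMP4 had only 2 regions in its window, and the distal one, 31.8 kb downstream of the TSS, had 925, 1207, 1301 and 1526 (-0.06, 0.11 and 0.48), short of 1.5-fold.

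Motifs were counted within 150 bp on either side of the highest summit of each region. GGCGCC stood in 18 of 85 windows (21.2%) against 6.86% of all regions. The difference was present within 3 kb of a TSS (31.6% against 14.7%) and farther away (12.8% against 2.75%). These windows were also richer in G and C, with a median of 51.8% against 46.8%, and the part of base composition was not tested. By gene the matches were 6 at ID1, 4 at ID3, 3 at ID2, 2 each at ID4 and BAMBI and 1 at BMP7. BMP2, BMP4 and GREM1 had none in these windows. Copies outside the window were not counted, such as those at -281 and 247 bp from the summit of the BMP2 TSS region. In the ID1 TSS region they lay at -862 and 343 bp. Shared regions with the element in this window had ratios from -0.40 to 0.39 at 72 h and a median of -0.04. Their highest ratio at 24 h was 0.70 at the BAMBI region 8.6 kb upstream. All 18 had a peak in solvent and at 6 and 72 h, and 17 had one at 24 h, when the ID3 region 28.7 kb downstream was lost. None of the 19 regions raised or gained at 72 h held it in the window, against 2.04% of all such regions. Farther from the summit, at -509 bp, GGCGCC also stood in the ID1 region 36.7 kb upstream, whose ratio at 72 h was -1.27. It stood as well in the ID2 region 1.2 kb downstream, 234 and 419 bp from the summit, and that region had no solvent peak.

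AP-1 sites were found in 23 of 85 windows (27.1%, all regions 34.3%). Among the 19 regions raised or gained at 72 h, 6 held one in the window (31.6%), where 44.2% of all raised or gained regions did. BMP7 had the most, in 6 of its 10 windows, followed by BAMBI and GREM1 with 4 each. The E-box stood in 28.2% of windows (all regions 24.5%) and the SMAD pair CAGACA in 22.4% (all regions 24.7%). The SMAD palindrome GTCTAGAC was in 0 of 85 (all regions 0.388%) and the cyclic AMP response element in 1 (all regions 0.611%). Most summits stayed in place, with a median shift from solvent of 9, 5 and 8 bp. Of 68 shared regions, 59 had their 72 h summit within 50 bp of the solvent summit, and 3 had moved over 200 bp. These were the TSS regions of BMP2 (-368 bp) and ID4 (468 bp) and the ID1 region 35.7 kb upstream (422 bp). The largest shift at 6 h was -1215 bp, in the ID1 region 38.9 kb upstream.

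The rest of the pathway was read by the TSS regions of 39 further genes, of which 33 had one. At 72 h 3 were raised, 28 stayed within 1.5-fold, 0 were lowered, 1 was gained and 1 had no peak in either list. The median ratio was -0.02 against -0.08 for the 13761 protein-coding genes with a TSS region in both lists. Of those genes 3.04% were raised and 1.30% lowered. The share of gained TSS regions was not computed for all genes at any time. The raised genes were a pair of ligands and an antagonist. GDF5, a BMP-type ligand, had 399, 821, 776 and 813 (0.78 at 72 h), and INHBA, the activin A subunit, had 940, 1538, 1737 and 1773 (0.67). FSTL3, which binds activins, had 2449, 5033, 5037 and 4849 (0.74). BMPER, a secreted BMP-binding protein, went from no solvent peak to 226, 240 and 212. FST, the activin-binding follistatin, was gained at 6 and 24 h (261 and 245) and had no peak in solvent or at 72 h. At 6 h 4 genes were raised (GDF5, ACVR2A, CHRD and FSTL3) and 27 stayed within 1.5-fold. At 24 h 2 were raised (CHRD and FSTL3) and 29 stayed within it, with 0 lowered at either time. Of all protein-coding genes 2.35% were raised and 0.325% lowered at 6 h, and 3.40% and 0.883% at 24 h. CHRD encodes the BMP antagonist chordin. Of the 8 receptor genes 7 had a TSS region, and the only one raised was ACVR2A at 6 h. None of the 6 SMAD genes or the 3 E protein genes was raised or lowered by 1.5-fold. SMAD7 came closest, with -0.55 at 24 h and -0.34 at 72 h. Both values lay below the 5th percentile of all protein-coding genes, -0.30 and -0.33. ATF3, the known repressor of ID1, had 12541, 15587, 14052 and 11704. Its scaled ratio of -0.35 at 72 h was also below that percentile. No TSS region was called for BMP3, BMP5, GDF6, ACVRL1, SOSTDC1 and CHRDL1.

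As a check of the label, all 7 epithelial genes (KRT5, KRT14, KRT17, KRT18, TP63, CDH1 and EPCAM) had a solvent peak over an annotated TSS. For TP63 this was another annotated start, since no region lay within 3 kb of its canonical TSS. None of PTPRC, CD3E, PECAM1, CDH5, MYOD1 and ALB, which mark other cell types, had a solvent peak over any annotated TSS. PTPRC had a region 2618 bp from its TSS with 377, 706, 801 and 1034 (0.47, 0.71 and 1.21).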

How the data were processed

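ATAC-seq peak lists of 4 conditions, each called on 2 replicates, were analysed. The submitters' processing notes name Trimmomatic 0.38 for trimming, Bowtie2 2.4.5 for mapping to GRCh38, SAMtools 1.4.1, Picard and the peak caller Genrich 0.5, which the authors ran with its ATAC-seq option. The deposited score is the AUC of a peak, with a minimum of 200, and is not scaled for depth. The −log10 q that the authors deposited with each peak belongs to its summit. Depth is unknown, because the lists hold no read totals. The name of each list gave its condition.

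Lists were merged at 1 bp, annotated with GENCODE 44 on the same build, summed per region and scaled at regions within 3 kb of a TSS, with Python 3.11.15 and pandas 2.3.3. No test was run, since no list holds replicate values. Shares carry 95% Wilson intervals (scipy 1.17.1) for counting error only, and the steps were tested on simulated lists. Named regions were, per gene, the TSS region, up to 3 raised, lowered and gained regions by size, and every lost one at 72 h. The regions of BMP7 at 75.5 kb, BMP4 at 31.8 kb, BMP2 at 20.6 kb, BAMBI at 8.6 kb and ID3 at 28.7 kb, and ACVR2A, CHRD and FST, were named after their values were seen. Copies of 24-mers were counted in the hg38 sequence. The genes, lists and motifs were chosen with earlier results of these data known. Alternatives covered scaling, peak threshold, merging, window, AUC per base, assignment and fold.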

Additional observations from a re-analysis of the deposited data

How the results depend on the processing

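No paired analysis was possible because each list pools both replicates, and for the same reason no replicate could be left out. Without scaling, the share of raised regions was 30.4%, 43.3% and 29.4% at 6, 24 and 72 h, and lowered regions were 0% at 6 and 24 h, since unscaled AUC keeps the shift of the whole list. With AUC per base, raised regions at 72 h fell to 5.88%, and the ID2 region 11.4 kb downstream reversed to -0.78 at 6 h and -0.40 at 72 h. A 2-fold limit also gave 5.88% raised at 72 h, and 0% lowered at 6 and 24 h. Lowered regions were 0% at 6, 24 and 72 h in a window of 20 kb, 0% at 6 h with a minimum AUC of 400, and 0% at 72 h when the nearest protein-coding TSS had to be that of one of the 9 genes. Some counts moved by about 1.5 times or more within the interval of the reported share. Scaled over all shared regions, raised regions were 7.35% at 72 h and lowered ones 2.90% at 6 h and 5.88% at 72 h. Per base, raised regions were 4.35% at 6 h and lowered ones 2.90%, 5.97% and 4.41% at 6, 24 and 72 h. A 2-fold limit gave 4.35% and 5.97% raised at 6 and 24 h and 1.47% lowered at 72 h, the last also without scaling. A minimum AUC of 400 gave 5.66% raised at 6 h. A window of 100 kb gave 16.1% and 18.6% raised at 24 and 72 h and 1.79% and 4.42% lowered. Its upper bounds for raised regions, 24.0% and 26.7%, lay above the all-region shares of 20.3% and 22.9%. Scaling at protein-coding TSSs gave 13.2% raised at 72 h, with an upper bound of 23.3%. For gained regions the upper bound of the interval was 24.0%, 33.5% and 27.3% with a minimum AUC of 400, and 20.3% at 6 h with pairwise merging. No background was computed for these 3 settings. In a window of 20 kb the bound for gained regions was 28.2% at 24 h, above the all-region share of 27.6%. The cause of each was not tested beyond what the setting itself removes. Of 87 alternative shares, 73 stayed inside the interval of the reported share. Of 296 alternative values of named regions, 268 stayed on the same side of 1.5-fold, 26 crossed it and 2 reversed. Depth is unknown, so a peak absent from a list may lie just under the AUC minimum of 200.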
